A study of Mus musculus with 132 samples.

Results

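The genes described here were 31 genes of cholesterol and fatty acid synthesis and of its control, chosen by gene symbol from the 32245 genes of the deposited table, and all 31 were present. The choice was made with earlier results of these data known. Counts of these genes beside shares over all genes are therefore descriptions only. They comprised 7 genes of the acetyl and mevalonate steps, 11 genes from squalene to sterol, 6 genes of the SREBP control system together with a sterol carrier, and 7 genes of fatty acid synthesis. Levels were read in 132 single cells of mouse embryos by Smart-seq2, a full-length polyadenylated RNA method without strand information or molecular identifiers. Embryos of C57BL/6 x DBA F1 parents were collected at E1.5 as 2-cell embryos. Culture followed in 5 or 10 µM of either the mirVana miR-381-3p mimic or a negative control mimic of scrambled sequence, and the embryos were dissociated at the 8-cell (E2.5) or the 32-cell stage (E3.5). All embryos therefore received a synthetic small RNA, and no group was left without one. The 8-cell embryos that were sequenced had 10 µM and the 32-cell embryos 5 µM, so stage and dose cannot be told apart. The 4 groups held 30 cells (8-cell control), 24 cells (8-cell mimic), 39 cells (32-cell control) and 39 cells (32-cell mimic), taken from 3 to 5 embryos each according to the labels.

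No label ties a cell to its embryo, so each group counted as 1 sample, no test between groups was possible, and no p-value is given. Levels are counts scaled to 1000000 counts outside the mitochondrial genome (CPM), pooled over the cells of a group, with exact Poisson 95% intervals. These intervals cover the counting error of reads alone. PCR copies of one molecule are counted as separate reads, so the intervals are narrower than the counting error of molecules. Changes are differences of log2(CPM + 1), which understate the change of low genes. A gene was compared where either group reached 20 CPM, and was called higher or lower at a difference of at least 2-fold. Total counts per cell ran from 544866 to 3461022, with 3243 to 8983 genes per cell. The smallest pooled level that 3 counts allow was between 0.0527 and 0.0971 CPM. No label names a sequencing run or batch. The cells of each group were therefore also read in blocks of near-consecutive cell numbers in the sample titles, a split made here within groups that stands for no known batch: 2 blocks of 8-cell control, 1 of 8-cell mimic, 2 of 32-cell control and 3 of 32-cell mimic cells. Any batch that followed the groups cannot be told apart from stage and treatment. Sex-linked transcripts also moved with treatment at the 32-cell stage. In all 39 control cells the Y-linked counts exceeded Xist, the non-coding RNA of the silenced X chromosome, whereas all 39 mimic cells held Xist counts, at 5.55 and 1080 CPM pooled. Markers of the cumulus and granulosa cells that surround the egg (Amh, Foxl2, Inha, Cyp19a1, Has2 and Ptgs2) were between 0 and 0.639 CPM in every group.

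Cells build cholesterol from acetyl units through mevalonate, farnesyl diphosphate and squalene, and build fatty acids from the same acetyl units through malonyl units. The SREBP transcription factors raise the genes of both routes when membrane sterol is low. SCAP escorts them to the Golgi for cleavage, and the INSIG proteins hold SCAP back when sterol is plentiful. In the preimplantation embryo these lipids supply membranes for cleavage and for the blastocyst epithelium.

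The mimic copies miR-381-3p, whose mature sequence is shown because its seed decides which transcripts could pair with it. Capitals mark the seed, bases 2 to 8, and the sequence was taken from RefSeq (GRCm38.p6), at chr12:109726870-109726891 on the plus strand.
mmu-miR-381-3p: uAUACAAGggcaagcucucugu

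Sites of 7 or 8 bases complementary to this seed (CTTGTATA or its first or last 7 bases, sense strand only) were found in the longest annotated 3′ UTR of 5 of the 31 genes, or 16.1%, against 4456 of 20741 genes, or 21.5%. The median 3′ UTR was 1462 bases for the 31 genes and 967 bases for all genes. The genes were Acaca, Elovl6, Hsd17b7, Insig1 and Stard4, a sterol carrier. The sites of all but Stard4, which had 1 site of 7 bases, are shown with 10 bases on either side and the matched bases in capitals. A match describes letters only and does not show that the transcript was bound.
Acaca, chr11:84401320-84401347, plus strand: gtgggctgggCTTGTATAagtccctttt
Elovl6, chr3:129634180-129634206, plus strand: agcctcagggCTTGTATgttcgctaca
Elovl6, chr3:129637797-129637823, plus strand: caaaagcctgTTGTATAatctggtatt
Hsd17b7, chr1:169949877-169949903, minus strand: acttgtcttcCTTGTATtgatagaggg
Insig1, chr5:28077783-28077809, plus strand: caatctgagcCTTGTATtctcgtaaat
Insig1, chr5:28078377-28078403, plus strand: atgcacttgaTTGTATAcaatgaggtt

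Among genes with a promoter entry in RefSeq, promoters are shown for those that differed most between the stages or that hold a sterol element. Scd1 and Scd2 had no entry. RefSeq gave a window of 250 bases before to 50 bases after the start for 25 of the 31 genes, and 3 motifs were searched on both strands. The core of the sterol regulatory element, TCACNCCAC, was in 1 of 25 (4%), against 1.44% of 27025 genes. CCAAT, the site of the factor NF-Y, was in 21 of 25 (84%), against 41.1% of all genes and 43.9% of genes at 20 CPM or more. GGGCGG, an Sp1 core, was also in 21 of 25 (84%), against 38.2% of all genes and 71.3% of genes at 20 CPM or more. In the windows below capitals mark both the sterol element core and the NF-Y site, in either orientation. Matches to the NF-Y site can overlap one another.
Hmgcs1, chr13:119690101-119690325, plus strand: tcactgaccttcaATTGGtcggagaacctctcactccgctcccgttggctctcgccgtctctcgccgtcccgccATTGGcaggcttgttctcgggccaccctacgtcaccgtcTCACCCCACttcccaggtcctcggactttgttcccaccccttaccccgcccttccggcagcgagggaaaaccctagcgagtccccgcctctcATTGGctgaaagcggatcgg
Mvk, chr5:114444081-114444268, plus strand: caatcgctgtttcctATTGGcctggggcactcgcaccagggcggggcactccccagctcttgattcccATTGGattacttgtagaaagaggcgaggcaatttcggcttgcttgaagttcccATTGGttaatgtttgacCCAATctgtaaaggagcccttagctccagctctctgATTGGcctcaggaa
Nsdhl, chrX:72918397-72918520, plus strand: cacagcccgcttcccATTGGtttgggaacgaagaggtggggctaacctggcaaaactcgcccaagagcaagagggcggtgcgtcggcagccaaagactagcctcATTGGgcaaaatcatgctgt
Insig1, chr5:28071181-28071215, plus strand: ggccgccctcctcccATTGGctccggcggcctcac
Srebf2, chr15:82147119-82147153, plus strand: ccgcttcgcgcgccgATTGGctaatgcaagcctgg

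The first comparison asked how the genes differed between the 8-cell and the 32-cell stage. Most were higher at the 32-cell stage in both treatments. In control embryos 18 of 27 compared genes were at least 2-fold higher, against 30% of all 7469 compared genes, and 1 (Scap) was lower, against 20.1%. In mimic embryos 18 of 27 were higher, against 29.1%, and 0 were lower, against 18.8%. The median log2 difference of the compared genes was 1.55 in control and 2.06 in mimic embryos, beside a median of 0.20 over all compared genes in each. Of the 27, 11 in control and 8 in mimic embryos reached 20 CPM in 1 stage alone, so that a difference was built into their entry. With the 2-cell block alone as the 8-cell control, the control median was 2.51, and with mean log2 values over cells it was 2.42. Over all 31 genes, whatever their level, the median was 1.34 and 2.05.

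**Figure D1:**
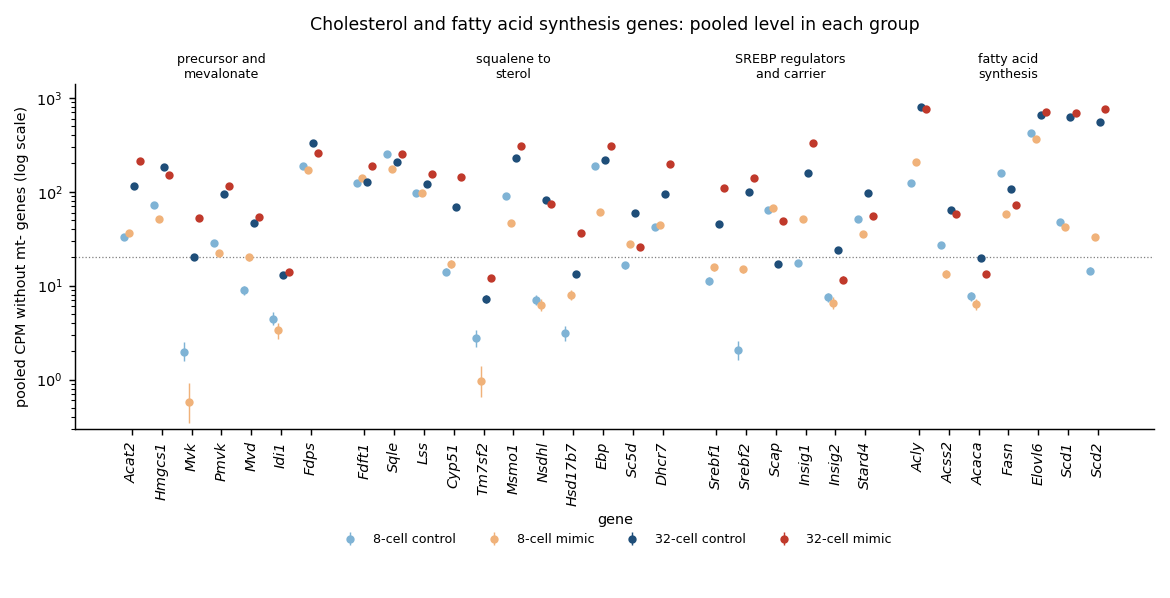
Pooled level of each of the 31 genes in the 4 groups, in CPM on a log axis, with 95% Poisson intervals (counting error only) and a dotted line at 20 CPM. Scd2 and Scd1 stand at 552 and 631 CPM in 32-cell control cells and at 14.5 and 47.4 CPM in 8-cell control cells.

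Summed per cell, the 31 genes gave no overlap between the stages. The lowest, median and highest sums were 1286, 2165 and 2719 CPM in 8-cell control cells, and 1068, 1721 and 2933 CPM in 8-cell mimic cells. They were 3056, 5120 and 8440 CPM in 32-cell control cells, and 3860, 6129 and 10061 CPM in 32-cell mimic cells. Acly, Elovl6, Scd1 and Scd2, singled out after their values were seen, carried 28.5% of the pooled sum in 8-cell control and 49.8% in 32-cell control cells. Without those 4 genes the sums overlapped between the stages in control cells, at 794 to 2387 and 1217 to 4350 CPM, but not in mimic cells, at 729 to 1790 and 1913 to 5284 CPM.

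**Figure D2:**
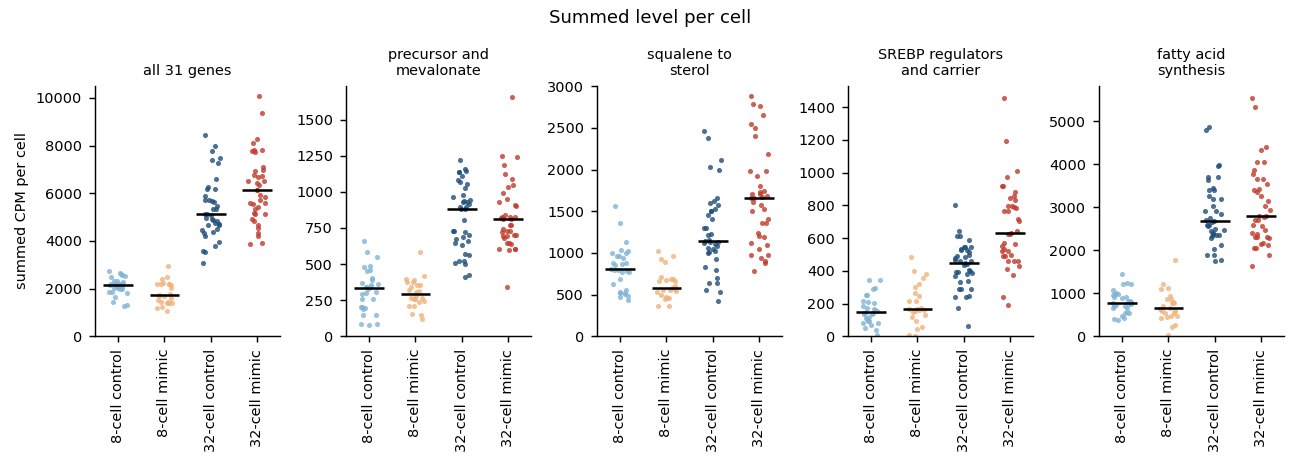
Summed CPM per cell of the 31 genes and of each of their 4 role groups, 1 point a cell, with a bar at the median of each group. The highest 8-cell cell (2933 CPM over all 31 genes) lies below the lowest 32-cell cell (3056 CPM).

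Among the acetyl and mevalonate genes, 5 of 6 compared were higher at the 32-cell stage in either treatment. The shares over all compared genes were 30% in control and 29.1% in mimic embryos. In each treatment 2 of the 6 reached 20 CPM in 1 stage alone, so that a difference was built into their entry. Mvk, which phosphorylates mevalonate, was counted in 2 of 30 8-cell control cells and 1 of 24 8-cell mimic cells, with pooled levels of 1.99 and 0.582 CPM. At the 32-cell stage it was counted in 23 and 27 of 39 cells, with pooled levels of 20.2 and 52.2 CPM, a ratio between stages of 10.2 (95% counting interval 8.04 to 13.1) in control and 89.7 (56.6 to 151.6) in mimic embryos. Acat2, which joins acetyl units at the head of the pathway, ran from 0 to 94.5 CPM with a median of 30.2 in 8-cell control cells. In 32-cell control cells it ran from 10.7 to 261 CPM with a median of 128, and the groups overlapped. Hmgcs1, the synthase that makes HMG-CoA, was at 71.4 and 51.5 CPM in 8-cell control and mimic cells and at 183 and 149.01 CPM at the 32-cell stage. Mvd, which makes isopentenyl diphosphate, went from 8.93 to 46.7 CPM in control embryos, but its direction rested on 1 block. The 2 cells of the smaller 8-cell control block pooled to 61.1 CPM, against 4.57 CPM in the 28-cell block, and with those 2 cells alone as the 8-cell control the log2 difference was -0.38. Fdps, which makes farnesyl diphosphate, went from 189 to 331 CPM in control embryos, under the 2-fold line.

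From squalene to sterol, 5 of 9 compared genes were higher at the 32-cell stage in control and 6 of 10 in mimic embryos. The shares over all compared genes were 30% and 29.1%. In each treatment 3 of these genes reached 20 CPM in 1 stage alone, so that a difference was built into their entry. Nsdhl, an X-linked sterol dehydrogenase (chrX:72918557-72958514), was counted in 4 of 30 8-cell control cells and 3 of 24 8-cell mimic cells, at 7.02 and 6.24 CPM pooled. At the 32-cell stage it was counted in 33 and 29 of 39 cells, at 81.2 and 74.5 CPM, ratios of 11.6 and 11.9. Its 32-cell levels in control and mimic cells lay within 2-fold of each other. These groups also differed in Xist, and the part of Xist in the level of Nsdhl was not tested. Cyp51, the lanosterol demethylase, went from 14.1 to 69.1 CPM in control and from 17.02 to 144.3 CPM in mimic embryos. Msmo1, the next demethylase of the route, went from 90.8 to 227 CPM and from 46.8 to 304 CPM. With the 2-cell block alone as the 8-cell control, at 148.8 CPM, its log2 difference in control embryos was 0.61, and that of Sc5d was 0.57, both under 2-fold. The genes around squalene itself differed less. Fdft1, the squalene synthase, was at 123 and 127 CPM, Sqle, the squalene epoxidase, at 254 and 207 CPM, and Lss, which closes the sterol rings, at 98.1 and 121 CPM in 8-cell and 32-cell control cells. The exons of Fdft1 overlap those of Ctsb on the opposite strand over 18.3% of their bases. Without strand information, reads of Ctsb (1131 CPM in 8-cell and 360 CPM in 32-cell control cells) cannot be told apart from Fdft1 there.

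Of the control genes and the carrier, 4 of 6 compared were higher at the 32-cell stage in control and 3 of 5 in mimic embryos. Of these, 5 in control and 2 in mimic embryos reached 20 CPM in 1 stage alone, among them all 4 that were higher in control embryos, so the counts are descriptions only. The shares over all compared genes were 30% higher in control and 29.1% in mimic embryos. Srebf2, the SREBP tied most closely to cholesterol genes, was counted in 6 of 30 8-cell control cells and 5 of 24 8-cell mimic cells. It was counted in 36 and 39 of 39 cells at the 32-cell stage. Pooled levels were 2.07, 14.9, 98.6 and 141.1 CPM in 8-cell control, 8-cell mimic, 32-cell control and 32-cell mimic cells, with a ratio between stages of 47.7 (38.03 to 60.6) in control embryos. Srebf1, the SREBP tied to fatty acid genes, went from 11.3 to 45.3 CPM in control and from 15.6 to 110 CPM in mimic embryos. Insig1 was counted in all 30 8-cell control cells at a low level, with a minimum, median and maximum of 2.44, 14.7 and 110.7 CPM. In 32-cell control cells these were 30.8, 144.4 and 386 CPM. Scap was the one gene at least 2-fold lower at the 32-cell stage in control embryos, from 63.9 (61.4 to 66.6) to 16.96 (15.9 to 18.1) CPM. It was counted in 23 of 30 and 17 of 39 cells there. This call rested on the 28-cell block of 8-cell control cells, since the other 2 cells pooled to 18.02 CPM and gave a log2 difference of -0.08 when used alone. In mimic embryos Scap was at 66.5 and 48.9 CPM, within 2-fold.

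**Figure D3:**
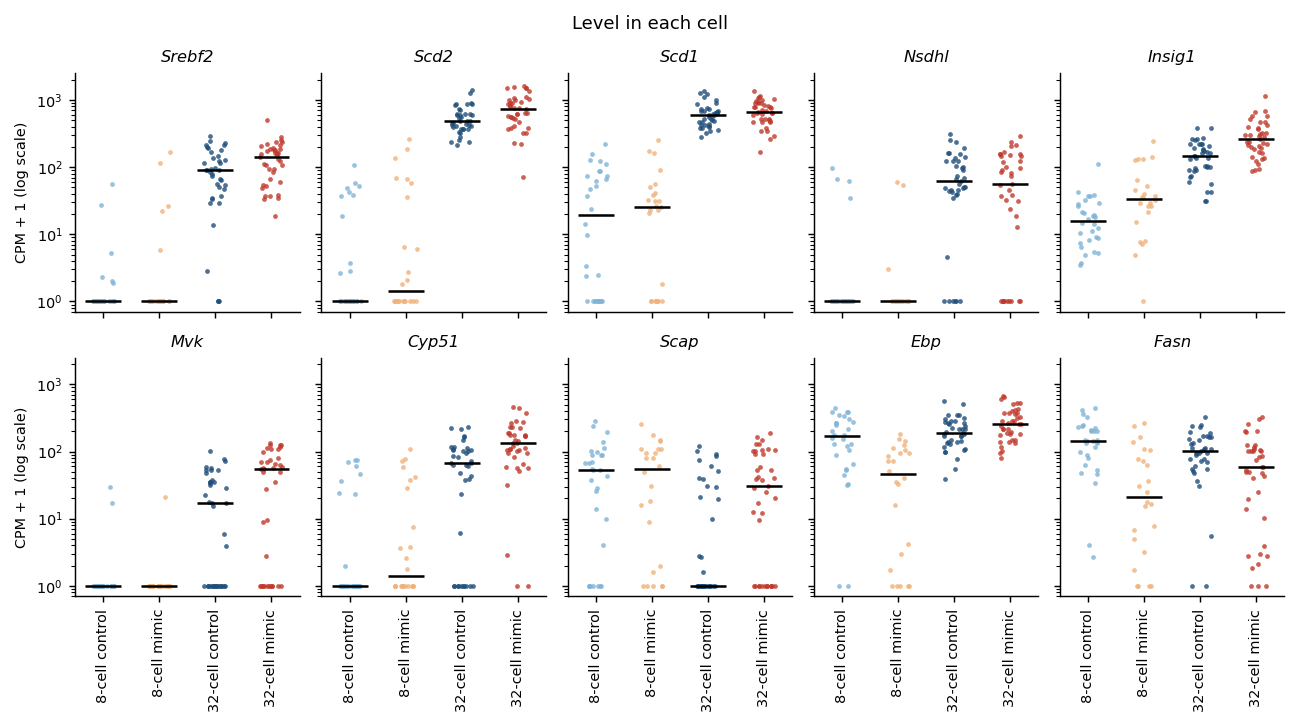
CPM + 1 of 10 genes in every cell of the 4 groups, on a log axis, 1 point a cell. Scd1 and Scd2 were counted in all 78 32-cell cells, Srebf2 in 6 of 30 8-cell control and 36 of 39 32-cell control cells, and Scap in 23 of 30 and 17 of 39.

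Of the fatty acid genes, 4 of 6 compared were higher at the 32-cell stage in either treatment. The shares over all compared genes were 30% in control and 29.1% in mimic embryos. In each treatment 1 of the 6 reached 20 CPM in 1 stage alone. Scd2, a desaturase that places the first double bond in saturated fatty acids, was counted in 11 of 30 8-cell control cells, with a highest value of 107.1 CPM. In 32-cell control cells it ran from 210 to 1412 CPM with a median of 478, above every 8-cell control cell, and the pooled ratio was 38.1 (34.97 to 41.6). Scd1, its neighbour on chromosome 19 and a close paralogue, ran up to 221 CPM in 8-cell control cells and from 281 to 1348 CPM in 32-cell control cells, without overlap, at a ratio of 13.3 (12.7 to 13.97). Reads shared between these paralogues could have been divided between them by the counting. Acly, which makes cytosolic acetyl-CoA from citrate, went from 123 to 789 CPM in control and from 208 to 760 CPM in mimic embryos, with overlapping cells. Fasn, the fatty acid synthase, did not follow them. It was at 159.5 and 107.1 CPM in 8-cell and 32-cell control cells and at 57.4 and 72.7 CPM in mimic cells. Acaca, which makes malonyl-CoA, stayed under 20 CPM in every group. Acss2, which activates acetate, went from 26.8 to 63.3 CPM in control embryos, and was at 0.93 on the log2 scale, under 2-fold, without the smaller 32-cell control block. Its exons overlap Gss on the opposite strand over 3.89% of their bases, and Gss went from 6.02 to 597 CPM.

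Per kilobase of exon the order of levels also differed by stage. Exon length was the union over all annotated transcripts of a gene, which can exceed the transcript present. Comparisons between genes are therefore approximate. In 8-cell control cells Ebp, a sterol isomerase, led with 81.9 CPM per kb, followed by Elovl6, an elongase, with 65.9, Sqle with 45.7 and Fdps with 44.8, and Srebf2 was lowest with 0.288. In 32-cell control cells Acly led with 149.5 CPM per kb, followed by Scd1 with 129, Elovl6 with 102.6 and Scd2 with 100.99, and Acaca was lowest with 1.16. In 32-cell mimic cells Acly, Scd1, Scd2 and Ebp stood at 144.05, 139.6, 137.6 and 132.9 CPM per kb. The differences among these last 4 are smaller than the spread between cells.

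By blocks of cell numbers, 19 of 28 compared genes were higher in each of the 5 32-cell blocks than in both larger 8-cell blocks (30.9% of all 8081 compared genes), and 1, Scap, was lower in all 5 (24.7%). The 8-cell block of 2 cells was left out of this count.

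**Figure D4:**
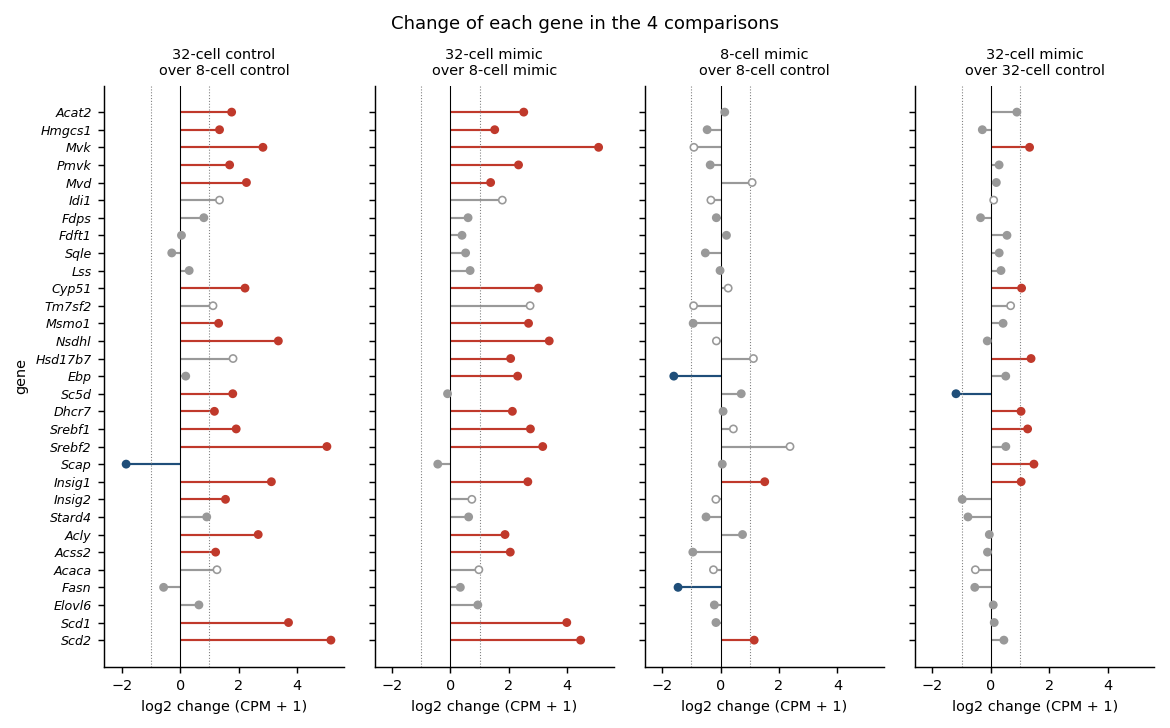
Difference of log2(CPM + 1) for each of the 31 genes in the 4 comparisons. Red points are at least 2-fold higher, blue at least 2-fold lower, grey within 2-fold, and open points were under 20 CPM in both groups. The 2 stage comparisons hold 18 red points each, the 8-cell treatment comparison 2 and the 32-cell treatment comparison 7.

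The second comparison asked whether the mimic moved these genes at the 8-cell stage. Of 20 compared genes, 2 (Insig1 and Scd2) were at least 2-fold higher in mimic cells, against 6.96% of all 6570 compared genes, and 2 (Ebp and Fasn) were lower, against 6.09%. Of the 20 genes, 4 reached 20 CPM in 1 group alone, so that a difference was built into their entry. Insig1 and Scd2 were among these and reached it in mimic cells alone. The median log2 difference was -0.16, beside 0.03 over all compared genes. Ebp had a minimum, median and maximum of 0, 167.1 and 447 CPM in control cells and of 0, 44.9 and 179 CPM in mimic cells. It pooled to 189 and 61.5 CPM, a ratio of 0.325 (0.309 to 0.342). Fasn had 1.73, 143.1 and 437 CPM in control cells and 0, 20.4 and 268 CPM in mimic cells, a pooled ratio of 0.360 (0.341 to 0.379). Insig1 pooled to 17.5 and 51.6 CPM, a ratio of 2.95 (2.69 to 3.24), and 1 of 24 mimic cells held none of it. Scd2 pooled to 14.5 and 33.3 CPM, a ratio of 2.30 (2.07 to 2.56), and was counted in 11 of 30 and 12 of 24 cells. Cells of the 2 groups overlapped for all 4 genes.

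The 8-cell groups also differed in sex-linked transcripts. Leaving aside Kdm5d, 23 of 30 control cells and 11 of 24 mimic cells held Xist without the other Y-linked transcripts. Among these cells, X-linked Ebp (chrX:8185329-8193512) pooled to 226 and 84.6 CPM, and among cells whose Y-linked counts exceeded Xist to 102.4 and 27.7 CPM. Fasn was at 162.98 and 75.6 CPM in the first kind of cell and at 151.2 and 37.99 CPM in the second. Insig1 was at 20.6 and 55.4 CPM, and at 10.1 and 48.2 CPM. Scd2 was at 18.02 and 54.5 CPM in the first kind but at 6.07 and 8.82 CPM in the second, under 2-fold. When Kdm5d was counted as well, 16 control and 3 mimic cells were left, and of these 4 genes Scd2 alone stayed past 2-fold. Over all 20 genes compared in cells whose Y-linked counts exceeded Xist (7 control and 8 mimic cells), 9 were lower in mimic cells, against 19.7% of the 6875 genes compared there, and 2 were higher, against 17.5%, with a median log2 difference of -0.76.

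The third comparison asked the same at the 32-cell stage. Of 28 compared genes, 7 were at least 2-fold higher in mimic cells, against 6.87% of all 7307 compared genes, and 1 was lower, against 5.36%. The 7 were Mvk, Cyp51, Hsd17b7, Dhcr7, Srebf1, Scap and Insig1, and the 1 was Sc5d. Of the 28 genes, 3 reached 20 CPM in 1 group alone, so that a difference was built into their entry. Hsd17b7 and Scap were among these and reached it in mimic cells alone. The median log2 difference was 0.32, beside 0.0075 over all compared genes. Scaling by TMM or by median-of-ratios gave 4 higher and 2 lower in place of 7 and 1. Of the 7, Cyp51, Dhcr7 and Insig1 lay close to the 2-fold line. TMM moved the median of all compared genes by -0.11.

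By role, 3 of 6 compared control and carrier genes were higher and 0 lower, and from squalene to sterol 3 of 10 were higher and 1 lower. Of the acetyl and mevalonate genes 1 of 6 was higher, and of the fatty acid genes 0 of 6, with 0 lower in either. The shares over all compared genes were 6.87% higher and 5.36% lower. Srebf1 had a minimum, median and maximum of 0, 28.5 and 236 CPM in control cells and of 0, 93.4 and 303 CPM in mimic cells, at a pooled ratio of 2.42 (2.31 to 2.54). Scap had 0, 0 and 121 CPM in control cells and 0, 29.3 and 186 CPM in mimic cells, at a ratio of 2.88 (2.68 to 3.11). Insig1 had 30.8, 144.4 and 386 CPM in control cells and 85.7, 259 and 1130 CPM in mimic cells, at a ratio of 2.06 (2.01 to 2.11). The 5 genes with a seed site went both ways. Insig1 and Hsd17b7, a sterol reductase, were higher with the mimic at this stage. Stard4 was at 95.7 and 55.1 CPM, Acaca, which holds the single 8-base site, at 19.7 and 13.3 CPM, and Elovl6 at 660 and 698 CPM in control and mimic cells. The 5 genes had a median log2 difference of 0.08 and the others of 0.32, against -0.22 and -0.15 at the 8-cell stage. Dhcr7, which completes the last reduction to cholesterol, was counted in 37 of 39 control and all 39 mimic cells, and pooled to 95.1 and 196 CPM. Cyp51 had medians of 65.9 and 133 CPM and a pooled ratio of 2.09 (2.01 to 2.17). Mvk had medians of 15.9 and 54.4 CPM and a pooled ratio of 2.58 (2.41 to 2.77). Sc5d, the sterol desaturase that acts just before Dhcr7, went the other way, at 59.8 and 25.6 CPM pooled and a ratio of 0.428 (0.401 to 0.456), with near medians of 14.97 and 13.6 CPM. The cells of the 2 groups overlapped for each of these 8 genes.

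By blocks of cell numbers, the groups overlapped for some of these genes and not for others. Dhcr7 was at 92.0 and 99.7 CPM in the 2 control blocks and at 192, 197 and 199 CPM in the 3 mimic blocks. Mvk was at 13.96 and 29.6 CPM and at 52.5, 46.9 and 57.7 CPM, and Srebf1 at 51.2 and 36.6 CPM and at 151.5, 87.2 and 81.2 CPM. The blocks of these 3 genes did not overlap between the treatments, but without the larger control block Mvk and Dhcr7 were at 0.80 and 0.97 on the log2 scale, and without the largest mimic block Srebf1 was at 0.88, all under 2-fold. Cyp51 was under 2-fold without either of these blocks, at 0.64 and 0.87, as did Sc5d, at -0.68 and -0.84, and Insig1 without the larger control or the smallest mimic block, at 0.58 and 0.68. Scap stayed past 2-fold whichever block was left out, at 1.13 to 1.76. Insig1 did overlap, at 120 and 219 CPM in control and 192, 332 and 500 CPM in mimic blocks. So did Hsd17b7, at 14.3 and 12.2 CPM and at 13.5, 29.3 and 73.6 CPM, and without its highest block the log2 difference was 0.59. Over all 28 compared genes, 8 were higher in each mimic block than in each control block (16.8% of all compared genes). They were Acat2, Mvk, Cyp51, Dhcr7, Srebf1, Srebf2, Scap and Scd2. Sc5d, Stard4 and Fasn were lower in each mimic block (16.5%). Xist was at 5.08 and 6.26 CPM in the control blocks and at 1497, 918 and 725 CPM in the mimic blocks, and its part in these differences was not tested.

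**Figure D5:**
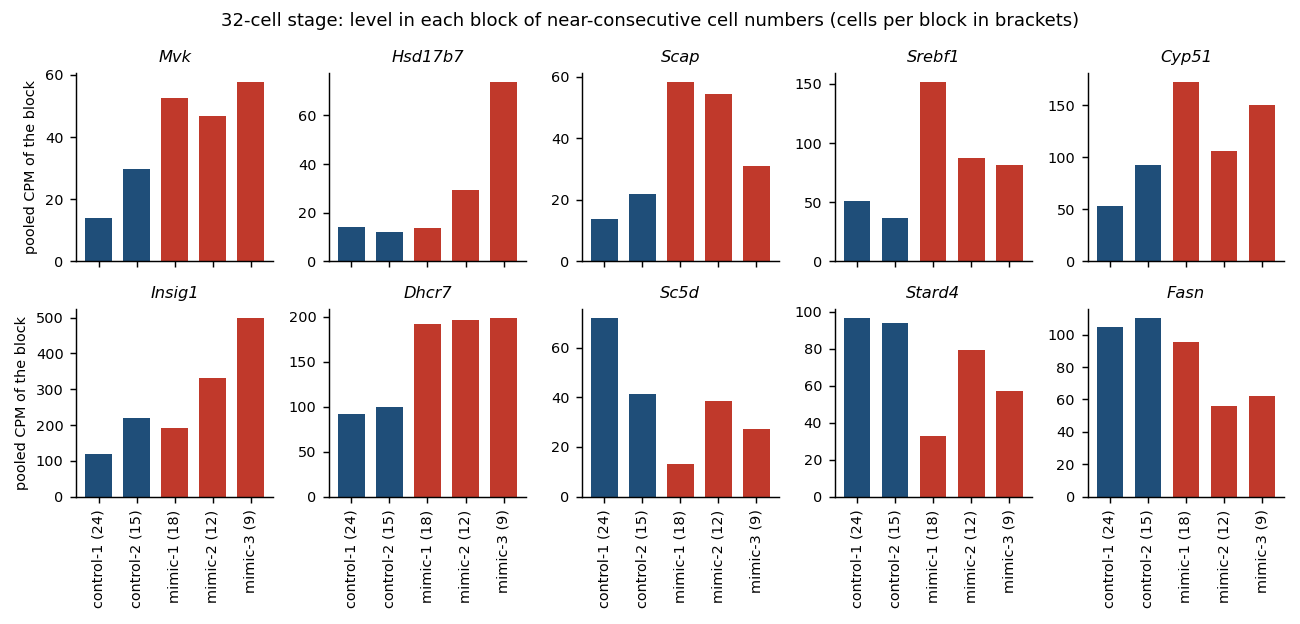
Pooled CPM of 10 genes in each of the 5 32-cell blocks of near-consecutive cell numbers, control blocks beside mimic blocks, with bars from 0. Dhcr7 stands at 92.0 and 99.7 CPM in the control blocks and 192 to 199 CPM in the mimic blocks, while Hsd17b7 and Insig1 overlap.

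The 32-cell embryo has begun to divide into inner cell mass (ICM), which forms the fetus, and trophectoderm (TE), which forms the placenta. Clustering gave an ICM-like and a TE-like class, in which 9 of 9 ICM markers and 9 of 9 TE markers respectively were higher. The classes were named from these same markers, so the counts are no separate check of the names. The ICM-like class held 25 of 39 control cells, 64.1% (exact binomial 95% interval 47.2 to 78.8), and 9 of 39 mimic cells, 23.1% (11.1 to 39.3). With all genes used for clustering the mimic count was 14 of 39, 35.9% (21.2 to 52.8), an interval that overlaps that of the control cells. These intervals treat cells as independent, and no cell is tied to its embryo, so they cover no variation between embryos. They are no test of an effect of the mimic on the classes. By immunofluorescence of blastocysts, the paper reported no shift in the proportion of ICM and TE cells with the mimic. No marker was among the 10 leading genes of the TE-like class, and 1 was among those of the ICM-like class, as was the Y-linked gene Uty. The class shares differed between control and mimic cells, so the genes were also compared within a class.

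In ICM-like cells 2 of 30 compared genes were higher in mimic cells, against 12.6%, and 3 were lower, against 10.1%. In TE-like cells 5 of 28 were higher, against 11.8%, and 2 were lower, against 8.05%. Srebf1 and Scap were higher and Sc5d was lower in both classes, but with all genes used for clustering Sc5d in TE-like cells was at 57.2 and 30.4 CPM, under 2-fold. Srebf1 was at 55.2 and 135 CPM in ICM-like control and mimic cells and at 32.1 and 103.6 CPM in TE-like cells. Scap was at 16.2 and 46.1 CPM and at 18.04 and 49.6 CPM. Sc5d was at 61.8 and 16.1 CPM and at 57.2 and 27.98 CPM. Mvk was past 2-fold in TE-like cells, at 14.6 and 57.5 CPM, but not in ICM-like cells, at 24.4 and 31.5 CPM, and whether the classes differ could not be tested. Between the classes in control embryos 2 of 28 genes, Hsd17b7 and Acaca, were higher in ICM-like cells (11.9% of all compared genes) and 0 were lower (10.1%). Both reached 20 CPM in ICM-like cells alone, so that a difference was built into their entry. Hsd17b7 was at 20.03 and 4.64 CPM and Acaca at 25.8 and 11.6 CPM in ICM-like and TE-like control cells. Summed, the 31 genes were at 5694 CPM in ICM-like and 4743 CPM in TE-like control cells, and at 6320 and 6270 CPM in mimic cells.

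Neighbouring lipid pathways were listed by function, and are read beside the shares of all compared genes given above (30% higher and 20.1% lower in control, 29.1% and 18.8% in mimic embryos). Of the genes compared in control and mimic embryos, 1 and 2 of the oxidation list, 5 and 4 of elongation and activation, 4 and 6 of triglyceride and droplet, 3 and 3 of sterol export and 1 and 1 of the isoprenoid list reached 20 CPM in 1 stage alone, so that the counts below are descriptions only. In control embryos, 8 of 11 compared genes of fatty acid oxidation were higher at the 32-cell stage and 0 lower, and in mimic embryos 6 of 11 were higher and 1, Acads, lower. Cpt2, a carnitine acyltransferase of mitochondria, went from 2.12 to 81.9 CPM and Acadvl, a dehydrogenase of long acyl chains, from 26.2 to 286 CPM. Among genes of elongation and activation 7 of 11 were higher and 2 lower in control embryos, and 7 of 10 and 1 in mimic embryos. Slc25a1, which exports citrate from mitochondria to the reaction of Acly, went from 2.45 to 57.6 CPM, and Acsl4, an acyl-CoA synthetase, from 661 to 99.0 CPM. Of the triglyceride and droplet genes 4 of 7 were higher and 1 lower in either treatment. The enzymes Dgat1 and Dgat2, which catalyse the same last step of triglyceride synthesis, went from 1.01 to 62.3 CPM and from 241 to 7.84 CPM in control embryos. Plin2, a droplet coat protein, went from 55.5 to 642 CPM. Of sterol export and storage genes 3 of 7 were higher and 1, Nr1h3, lower in either treatment, and of isoprenoid branch genes 1 of 7 (Pdss1) was higher in control and 2 of 6 (Ggps1 and Fntb) in mimic embryos, with 0 lower.

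With the mimic at the 32-cell stage, 0 of 10 elongation and 0 of 11 oxidation genes passed in either direction, beside 6.87% higher and 5.36% lower of all compared genes. Rabggtb, a prenyl transferase subunit, was higher at 371 against 154.97 CPM, as was Scarb1, a lipoprotein receptor, at 60.1 against 25.3 CPM. Plin2 was lower, at 304 against 642 CPM.

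Within a group, most pairs of the genes were weakly correlated from cell to cell. Not all 31 genes entered, and the genes that did differed between groups. The median Spearman correlation was 0.076 over pairs of 26 genes in 32-cell control cells (325 pairs, 39 cells), beside 0.0028 over pairs of all genes that entered. It was 0.043 over pairs of 27 genes in 32-cell mimic cells, beside 0.0057. In 8-cell control cells it was -0.0084 over 136 pairs of 17 genes, beside 0.0011, and in the 8-cell mimic group 0.039 over the pairs of 19 genes, beside 0.019. The correlation that 10% of all pairs exceeded was passed by 68 of 325 pairs of these genes in 32-cell control cells and by 55 of 351 in 32-cell mimic cells. For the younger embryos it was passed by 10 of 136 pairs in control cells and by 15 pairs in mimic cells. The strongest pairs were Fdps with Msmo1 at 0.61 in 32-cell control cells, and Msmo1 with Ebp at 0.66 in 32-cell mimic cells. All values of a cell share its library and depth, so these are descriptions without a test.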

How the data were processed

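Single cells were sequenced by Smart-seq2. Per the labels and the study's methods, the authors aligned reads with STAR 2.5.1b to mm10 and estimated counts per gene with RSEM 1.3.0. The deposited values are these estimated (expected) counts, and every one was a whole number, so no rounding was needed. The study's cell filter (at least 3000 genes, under 10% mitochondrial counts) removed 0 cells. No doublet caller was run, since cells were picked by hand.

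Counts outside the 13 mitochondrial genes were pooled per group and scaled to CPM (Python 3.11.15, scipy 1.17.1), with 1 added before log2, with exact Poisson intervals and exact conditional intervals for ratios. Cells were clustered with Seurat 5.3.0 (2000 variable genes, 25 components, resolution 0.8) on alternate genes in alphabetical order, without the 31 genes, the other lipid genes and the mitochondrial genes. TMM factors came from edgeR 4.0.16 and size factors from DESeq2 1.42.0. The pooling and calling steps were tested on simulated data. Named genes were the 31 genes and those of the pathway lists that passed 2-fold. A list of genes that process SREBP is not reported here. The genes and lists were chosen with earlier results of these data known. Comparisons were repeated in cells with Xist and no Y-linked count. Cells sorted without Kdm5d, cells with Y-linked counts above Xist, and cells with at least 5000 genes were added after seeing the data.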

Additional observations from a re-analysis of the deposited data

How the results depend on the processing

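Stage differences kept their counts within 1.5 times under every setting run, with 17 to 22 genes higher and 1 lower in control embryos and 18 to 23 higher and 0 lower in mimic embryos. The 1 lower gene was not always Scap, which was at -0.08 without the 28-cell block, where another gene was lower. At the 8-cell stage the 2 genes higher in mimic cells became 1 with a pseudocount of 5, 5 with a filter of 5 CPM or none, 4 with a 1.5-fold line and 4 in cells with Xist and no Y-linked count. The 2 lower genes became 4 with mean log2 values, 4 with a 1.5-fold line, 4 in cells with Xist and no Ddx3y, Eif2s3y or Uty count, and 9 in cells with Y-linked counts above Xist. Leaving out 1 block of cell numbers at a time gave 2 to 6 higher and 3 to 7 lower genes. The 8-cell median log2 difference of -0.16 ran from -0.153 to 0.244 when 1 block was left out, turning without the 28-cell control block, and turned to 0.113 in cells with Xist and no Y-linked count, and 0.0255 when Kdm5d was ignored there. It was -0.76 in cells with Y-linked counts above Xist and -0.33 with mean log2 values. The median stage difference in control embryos moved from 1.55 to 2.51 without the 28-cell block and to 2.42 with mean log2 values. Mvd between stages in control embryos ran from -0.38 without the 28-cell block to 3.10 without the 2-cell block.

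At the 32-cell stage the 7 higher genes became 4 with TMM and 4 with median-of-ratios. The 1 lower gene became 2 with TMM, median-of-ratios, mean CPM, mean log2 values, a pseudocount of 0.1, thinned counts or classes weighted equally, and 3 with a 1.5-fold line. Leaving out 1 block of cell numbers at a time gave 4 to 8 higher and 0 to 2 lower genes. The causes of these shifts were not tested. No paired analysis was possible because the replicate numbers name single cells and no cell is tied to an embryo or to a cell of another group. Mvk, Nsdhl and Srebf2 were counted in few 8-cell cells, and thinning every cell to 1 depth left 2, 4 and 5 of 30 control cells with a count in place of 2, 4 and 6.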
